A study of Mus musculus with 11 samples.

Results

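NRAS-driven and PDGFB-driven brain tumors of the mouse were compared with each other, 4 libraries of each and 8 of the 11 libraries in all. The other 3 libraries, of normal brain, served as a reference level. Groups were taken from the sample titles, which also tie normal brains 1 and 3 to NRAS tumor 2 and PDGFB tumor 1 as their matches. The series text speaks of pairs without saying what they share, and the model treated the normal brains as a group of their own. The tumors were raised with the Sleeping Beauty (SB) system, whose transposase integrates plasmid genes into host chromosomes, by injection of newborn mice in the right lateral ventricle. All 8 tumors share the SB transposase, firefly luciferase and the SV40 large T antigen, an inhibitor of p53 and Rb. NRAS tumors also carry constitutively active NRAS with the G12V substitution, PDGFB tumors also carry PDGFB, and normal brain is labelled as a wild-type control. The promoters on the plasmids, the cells that took them up and the ages of the mice beyond a middle stage of tumor growth are not known from the labels. Sample labels name strain B6 for all 8 tumors and normal brains 1 and 2 and FVB for normal brain 3, while the series text names FVB for the tumors. The tumor region was dissected by its GFP fluorescence. Each library is thus bulk tissue of tumor and host cells, in which fewer cells of a type and less RNA per cell cannot be told apart. The labels do not say that the tumors of a model came from separate mice, so p-values cover only the spread among the samples at hand.

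NRAS is a small GTPase that, in its active form, signals through RAF, MEK and ERK to genes for growth factors, phosphatases and AP-1 transcription factors. PDGFB is a secreted growth factor, and its receptor PDGFRA marks oligodendrocyte progenitors, glial cells that divide in response to PDGF. In human glioblastoma, a proneural group of tumors is known for genes of oligodendrocyte progenitors and a mesenchymal group for genes of matrix, wound repair and immune cells. The study set out to compare the 2 mouse models with such groups.

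Values were FPKM (fragments mapped to a gene, scaled by transcript length and library total), and the number of reads behind them is unknown. Steps between low values gave relative depths of 0.932 to 1 for the NRAS libraries and 0.850 to 0.890 for the PDGFB libraries, and 13452 to 13923 against 12705 to 13148 genes reached 1 FPKM. Title numbers put NRAS tumors 1 and 2 (1835 and 1838) in the number range of the normal brains, and NRAS tumors 3 and 4 in the range of all PDGFB tumors (2038 to 2046). The labels do not say what the numbers mean. Results were therefore also computed for NRAS tumors 3 and 4, and for NRAS tumors 1 and 2, each pair against the same 4 PDGFB tumors. Y-linked genes were expressed in NRAS tumors 2 and 4 and in PDGFB tumor 2. Across genes (not independent replicates), log2 values of 2 libraries correlated at 0.893 to 0.944 between NRAS tumors and at 0.929 to 0.980 between PDGFB tumors. Between the models they correlated at 0.816 to 0.921, which overlaps the NRAS range. With normal brain, NRAS tumor 2 correlated at 0.853 to 0.860 and the other NRAS tumors at 0.673 to 0.7145. PDGFB tumor 2 correlated with normal brain at 0.698 to 0.710 and the other PDGFB tumors at 0.793 to 0.824. What set these tumors apart within their models was not tested.

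The plasmid genes are described first. Values of 4 libraries are given in the order of tumors 1 to 4. Nras, on chromosome 3 at 103058285 to 103067914 of the GRCm38.p6 assembly, stood at 154, 139, 119.7 and 82.00 FPKM in the NRAS tumors and 36.5, 42.9, 39.00 and 31.7 FPKM in the PDGFB tumors. All NRAS tumors lay above all PDGFB tumors, with a log2 difference (NRAS minus PDGFB, here and below, ± SE) of 1.67 ± 0.19, adjusted p = 0.000356. Pdgfb, on chromosome 15 at 79995865 to 80024614, stood at 5.15, 5.49, 6.46 and 7.799 FPKM in the NRAS tumors and 1030.1, 1564, 904 and 745 FPKM in the PDGFB tumors. The NRAS tumors were at the level of normal brain (6.88, 6.12 and 7.19 FPKM), and the difference was -7.16 ± 0.20, adjusted p = 1.34e-08. Plasmid and mouse transcripts cannot be told apart in these gene-level values, and whether plasmid reads are part of them was not tested.

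Of 14491 genes tested, 3852 (26.6%) differed between the models at an adjusted p under 0.05, 2078 (14.3%) higher and 1774 (12.2%) lower in NRAS tumors. The 2 directions differed in size more than in number. Differences of at least 2-fold were found for 1349 higher (9.31%) and 448 lower genes (3.09%), and differences of at least 4-fold for 436 higher and 34 lower genes. The values of the 2 models did not overlap for 3546 genes (24.5%), of which 1865 lay above and 1681 below in NRAS tumors. With quantile normalization, which shifts the median of all genes to -0.11 from -0.04, the split was 1807 higher and 2289 lower. Without NRAS tumor 4 the number lower was 1154, and without PDGFB tumor 3 it was 1033. Many calls thus lie close to the general level, and small differences should be read relative to it.

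**Figure D1:**
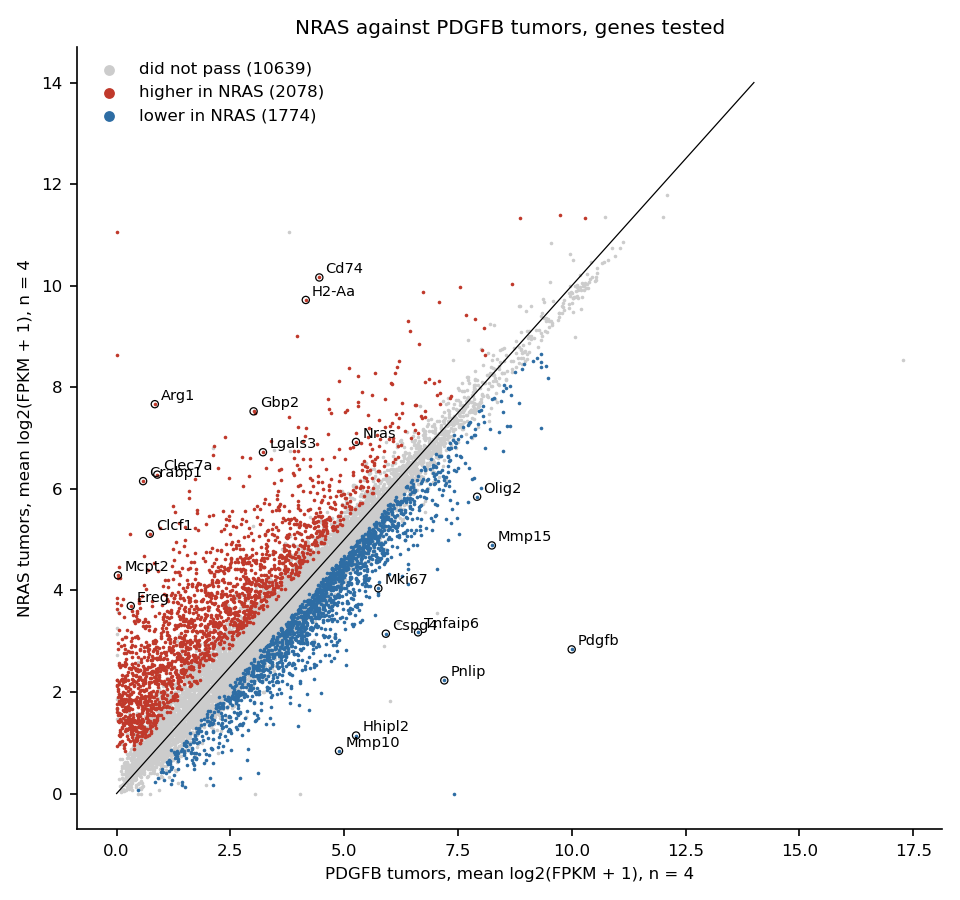
Mean log2(FPKM + 1) of the 4 PDGFB tumors (horizontal axis) and the 4 NRAS tumors (vertical axis) for the 14491 genes tested; coloured points are the 2078 genes higher and the 1774 lower in NRAS tumors, and grey points did not pass. Named points are genes of the text; genes above the diagonal reach much farther from it (436 at least 4-fold) than genes below it (34).

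NRAS tumors differed more among themselves than PDGFB tumors did. The standard deviation of log2 values was larger in NRAS tumors for 60.9% of genes, with a median of 0.288 against 0.240. NRAS tumors 3 and 4 against the 4 PDGFB tumors gave 1907 higher (13.2%) and 1286 lower genes (8.87%). NRAS tumors 1 and 2 gave 1103 higher (7.61%) and 467 lower genes (3.22%). Both pairs called 1405 genes in the same direction and none in opposite directions, but they share the PDGFB tumors, so these counts are not independent. Of the 3852 genes, 2844 were also called with the first pair and 1539 with the second.

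Among genes of growth factor and RAS signalling, NRAS tumors had much more mRNA of EGF receptor ligands, and PDGFB tumors had more Pdgfra and several feedback genes. Of 14 tested genes of the EGF family, 7 were higher and 1 lower in NRAS tumors (median 0.79, beside -0.04 over all genes tested). Quantile normalization gave 7 higher and 4 lower with a median of 0.47. Ereg (epiregulin), a ligand of the EGF receptor, stood at 10.8, 14.2, 6.51 and 19.7 FPKM in the NRAS tumors and 0.152, 0.465, 0.117 and 0.258 FPKM in the PDGFB tumors. Every NRAS tumor was above every PDGFB tumor (3.38 ± 0.26, adjusted p = 4.37e-05), and normal brain was at 0.0181, 0 and 0 FPKM. Areg (amphiregulin) stood at 26.03, 31.7, 8.195 and 60.6 FPKM in the NRAS tumors and 2.68, 2.38, 1.36 and 2.999 FPKM in the PDGFB tumors, with NRAS tumor 3 lowest of its model and still above all PDGFB tumors (3.02 ± 0.45, adjusted p = 0.00132). Hbegf, the heparin-binding ligand, stood at 73.4, 147, 107 and 70.8 FPKM in the NRAS tumors and 16.8, 18.8, 13.9 and 14.8 FPKM in the PDGFB tumors, again without overlap (2.499 ± 0.21, adjusted p = 9.05e-05). The receptor gene Egfr itself was higher (8.95 ± 1.73 against 2.26 ± 0.516 FPKM, 1.61 ± 0.18). Tgfa, another ligand of the same receptor, went the other way, at 14.4, 13.5, 7.06 and 5.78 FPKM in the NRAS tumors and 33.6, 20.1, 32.4 and 19.1 FPKM in the PDGFB tumors. All NRAS tumors lay below all PDGFB tumors (-1.33 ± 0.30, adjusted p = 0.00855), but NRAS tumors 1 and 2 alone did not pass (-0.82, adjusted p = 0.0937).

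In the list of RAS-MAPK output and feedback, 8 genes were higher, 5 lower and 10 did not pass, and the median was -0.03. Epha2, an ephrin receptor gene driven by ERK, had tight values of 15.3, 14.4, 13.3 and 13.3 FPKM in the NRAS tumors and 1.16, 1.37, 1.32 and 1.38 FPKM in the PDGFB tumors. That is a gap of 2.71 ± 0.12, adjusted p = 6.87e-07, far larger than the spread within either model. The MAPK phosphatase genes Dusp5 (1.999 ± 0.18) and Dusp4 (1.48 ± 0.25) and the AP-1 gene Fosl1 (2.13 ± 0.21) were higher as well. Dusp6, the phosphatase most specific for ERK, stood at 151, 121, 117 and 116 FPKM in the NRAS tumors and 101, 194, 123 and 111 FPKM in the PDGFB tumors. Its values overlapped and did not differ by the test (-0.03 ± 0.19, adjusted p = 0.929), while both models lay well above the 18.5, 19.1 and 22.6 FPKM of normal brain. Etv4, an ETS factor induced by FGF and ERK signals, stood at 37.7, 34.1, 22.2 and 15.1 FPKM in the NRAS tumors and 54.7, 58.9, 64.03 and 58.6 FPKM in the PDGFB tumors, lower in every NRAS tumor and lowest in tumors 3 and 4 (-1.17 ± 0.23, adjusted p = 0.00494). Spry1, a feedback inhibitor of receptor tyrosine kinases (-0.97 ± 0.25), Phlda1 (-1.16 ± 0.15) and the immediate early gene Egr1 (-1.13 ± 0.25) were lower too. Of 20 genes of the RAS family and its regulators, 2 were higher and 2 lower (3 without NRAS tumor 2). That is 20%, beside 26.6% over all genes tested. The higher genes were Nras itself and Rras2 (1.18 ± 0.22). The RAS GTPase activating gene Rasa3 was lower (-1.002 ± 0.21).

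PDGF genes were split between the models. Pdgfra, the receptor of oligodendrocyte progenitors, stood at 144, 52.3, 48.8 and 44.1 FPKM in the NRAS tumors and 271, 322, 280.1 and 176 FPKM in the PDGFB tumors. NRAS tumor 1 lay closer to the lowest PDGFB tumor than to the other NRAS tumors, and the models did not overlap (-1.99 ± 0.33, adjusted p = 0.00203). Pdgfa, a ligand of that receptor, was higher in NRAS tumors, at 28.2, 46.8, 41.8 and 39.8 FPKM in the NRAS tumors and 14.1, 13.1, 22.1 and 17.6 FPKM in the PDGFB tumors. The lowest NRAS tumor still exceeded the highest PDGFB tumor (1.18 ± 0.18, adjusted p = 0.00143), and normal brain lay between them (27.8, 27.6 and 26.3 FPKM).

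Most oligodendrocyte progenitor genes were lower in NRAS tumors. Of 20 genes, all tested, 15 were lower and none was higher, with a median of -1.35. NRAS tumors 3 and 4 alone gave 15 and NRAS tumors 1 and 2 alone 10. The median difference of mean log2 values from normal brain was 0.68 in NRAS and 2.31 in PDGFB tumors. NRAS tumor 4 had a lower mean of the list (3.56 on the log2 scale) than any normal brain (3.74 to 4.07), and NRAS tumor 3 lay within their range (4.06). Both of these values use the same 3 normal brains and were not tested. Cspg4, the NG2 proteoglycan of progenitors, stood at 21.03, 8.16, 6.19 and 3.24 FPKM in the NRAS tumors and 60.3, 69.7, 64.7 and 45.5 FPKM in the PDGFB tumors. NRAS tumor 1 had the highest value of its model and lay 2.17-fold below the lowest PDGFB tumor (-2.77 ± 0.39, adjusted p = 0.00103). Olig2, the transcription factor that specifies the oligodendrocyte lineage, stood at 121, 76.3, 67.5 and 15.9 FPKM in the NRAS tumors and 219, 214, 255 and 283 FPKM in the PDGFB tumors. All NRAS tumors were lower, and tumor 4 stood at the level of normal brain, 16.3, 12.4 and 20.5 FPKM (-2.08 ± 0.48, adjusted p = 0.00942). Sox10, its partner factor in the lineage, stood at 96.7, 35.9, 36.2 and 18.5 FPKM in the NRAS tumors and 141, 169, 169 and 166 FPKM in the PDGFB tumors, with tumor 1 highest and tumor 4 lowest of the NRAS tumors again (-2.01 ± 0.39, adjusted p = 0.00424). Lhfpl3 (-2.29 ± 0.42), Olig1 (-2.12 ± 0.43) and Pcdh15 (-1.82 ± 0.36) were also lower. Because Pdgfra and Cspg4 also mark fibroblasts or pericytes, those lists were set beside this one. Fibroblast genes had 1 higher and 5 lower of 13. The number lower was 3 without NRAS tumor 1 or 2 or PDGFB tumor 4. It was 2 without NRAS tumor 3 or PDGFB tumor 1 or 3. Pericyte genes had 3 higher and 3 lower of 14 (1 and 7 with quantile normalization). Pdgfra is itself in the fibroblast list and Cspg4 in the pericyte list, and both are among the lower genes counted there. These counts are thus not separate from the progenitor list.

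Proneural glioblastoma genes, a list that shares 6 members with the progenitor list, had 12 lower and none higher of 22 (median -0.87). The number lower was 7 without NRAS tumor 4 and 6 without PDGFB tumor 3, and 6 with NRAS tumors 1 and 2 alone. Gsx1, a homeobox gene of ventral progenitors that is close to 0 in normal brain (0.3596, 0.263 and 0.138 FPKM), stood at 15.5, 5.07, 3.67 and 1.42 FPKM in the NRAS tumors and 25.3, 28.3, 36.8 and 40.3 FPKM in the PDGFB tumors (-2.51 ± 0.45, adjusted p = 0.00297). Among all tested SOX factors 5 were lower (3 without NRAS tumor 3 or 4 or PDGFB tumor 1, 2 or 3), among them Sox6 (-1.86 ± 0.35), and 3 higher, Sox1 (1.09 ± 0.25), Sox7 (1.67 ± 0.21) and Sox13 (1.04 ± 0.21). Emx2, a homeobox gene of the dorsal forebrain, stood at 12.5, 8.58, 17.8 and 14.7 FPKM in the NRAS tumors and 2.27, 0.543, 3.11 and 2.01 FPKM in the PDGFB tumors. The models did not overlap and PDGFB tumor 2 was lowest (2.32 ± 0.31, adjusted p = 0.000852).

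Among adhesion, receptor and channel genes of neural cells most members did not pass, and more glutamate receptor and protocadherin genes were lower than higher in NRAS tumors. Glutamate receptor genes had 11 lower and 2 higher of 25 tested. The number lower was 6 without NRAS tumor 3 or PDGFB tumor 3 and 7 without NRAS tumor 4 or PDGFB tumor 1. The number higher was 1 without NRAS tumor 2. Gria4, an AMPA receptor subunit, stood at 14.3, 25.7, 10.5 and 8.19 FPKM in the NRAS tumors and 39.6, 32.2, 36.7 and 29.6 FPKM in the PDGFB tumors (-1.29 ± 0.27, adjusted p = 0.00612), and Grik4, a kainate receptor subunit, at 4.78, 6.43, 4.06 and 2.38 FPKM in the NRAS tumors and 13.6, 9.51, 15.1 and 14.1 FPKM in the PDGFB tumors (-1.42 ± 0.24, adjusted p = 0.00224). Neither gene overlapped between the models. The AMPA receptor auxiliary subunit Cacng4 had the largest decrease in the channel lists, at 47.4, 27.4, 17.8 and 7.18 FPKM in the NRAS tumors and 157, 112, 161 and 103 FPKM in the PDGFB tumors (-2.62 ± 0.44, adjusted p = 0.00206). With NRAS tumors 1 and 2 alone 1 glutamate receptor gene passed as lower.

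Protocadherins, adhesion proteins encoded largely in clusters, had 21 lower and 1 higher of 62 (median -0.49). The number lower was 11 without NRAS tumor 3 or 4, 13 without PDGFB tumor 1 or 2 and 10 without PDGFB tumor 3, 5 with NRAS tumors 1 and 2 alone and 35 with quantile normalization. An example is Pcdhb10 at 3.18, 2.03, 1.25 and 0.848 FPKM in the NRAS tumors and 8.06, 9.35, 7.14 and 5.06 FPKM in the PDGFB tumors (-1.61 ± 0.28, adjusted p = 0.00233). Cadherins had 5 lower and 1 higher of 17: Cdh19, a cadherin of glial progenitors, stood at 2.31, 2.77, 1.803 and 2.68 FPKM in the NRAS tumors and 11.7, 33.9, 14.6 and 8.53 FPKM in the PDGFB tumors (-2.25 ± 0.33, adjusted p = 0.00127), and Cdh1, the epithelial E-cadherin, was higher (1.66 ± 0.29). Of 73 potassium channel genes 7 were lower (12 without NRAS tumor 2), among them Kcnd2 (-1.58 ± 0.26) and Kcnk2 (-1.58 ± 0.24), and 4 higher (2 without PDGFB tumor 2). Both shares are below those over all genes (12.2% lower and 14.3% higher), and quantile normalization gave 10 lower and 2 higher. Kcnn4, a calcium-activated channel of immune and activated cells, stood apart from the family at 10.4, 15.3, 15.05 and 14.9 FPKM in the NRAS tumors and 0.403, 0.5301, 0.355 and 0.648 FPKM in the PDGFB tumors (3.32 ± 0.15, adjusted p = 6.87e-07). By comparison, 18 GABA and glycine receptor genes had 1 lower member (0 without NRAS tumor 1, 3 or 4 or PDGFB tumor 1, 3 or 4 and 4 without NRAS tumor 2), 16 synaptotagmins 1, and 21 neuron genes 1 higher and 1 lower. Of neuron genes, the number higher was 0 without NRAS tumor 2 or 4 or PDGFB tumor 2 or 3, and the number lower 0 without NRAS tumor 1 or 4 or PDGFB tumor 1 or 3. Myelin genes had 1 higher of 16, the iron carrier gene Trf (2.07 ± 0.54, adjusted p = 0.0172), which did not pass with PDGFB tumor 3 left out, adjusted p = 0.0522. Summed neuron genes ran from 633 to 2874 FPKM in NRAS tumors, highest in NRAS tumor 2, and from 451 to 1732 FPKM in PDGFB tumors, against 5567 to 6778 FPKM in normal brain. Beside 14.3% of all genes tested, 15.8% of astrocyte genes were higher, 3 of 19 (5 without PDGFB tumor 4), and 0 were lower. Of these, the gap junction gene Gja1 stood at 66.8, 66.8, 59.7 and 120.3 FPKM in the NRAS tumors and 28.7, 6.74, 23.7 and 37.1 FPKM in the PDGFB tumors, lowest in PDGFB tumor 2 (1.82 ± 0.42, adjusted p = 0.00974), and Gfap, the intermediate filament of reactive astrocytes, did not pass (1.05 ± 0.45, adjusted p = 0.111).

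The genes with the largest differences in favour of PDGFB tumors included several secreted proteins. Pnlip, a lipase known from the pancreas, stood at 15.7, 5.55, 2.71 and 0.186 FPKM in the NRAS tumors and 101, 122, 165 and 223 FPKM in the PDGFB tumors. NRAS tumors ran over an 84.1-fold range, from tumor 4 to tumor 1, and all lay below all PDGFB tumors (-4.97 ± 0.65, adjusted p = 0.000721). Normal brain was at 0.0547, 0.213 and 1.29 FPKM. Hhipl2, a secreted relative of hedgehog-interacting protein, stood at 0.863, 5.88, 0.536 and 0.205 FPKM in the NRAS tumors and 46.3, 25.7, 41.4 and 39.2 FPKM in the PDGFB tumors (-4.12 ± 0.45, adjusted p = 0.000298). The matrix metalloproteinase gene Mmp10 (stromelysin 2) stood at 1.32, 0.112, 1.01 and 0.9805 FPKM in the NRAS tumors and 26.8, 17.2, 37.5 and 38.3 FPKM in the PDGFB tumors. It was near or below 1 FPKM in each NRAS tumor and close to 0 in normal brain (-4.05 ± 0.28, adjusted p = 2.01e-05). Tnfaip6, which modifies hyaluronan in inflamed matrix, stood at 7.91, 19.1, 10.3 and 2.27 FPKM in the NRAS tumors and 98.8, 44.7, 157 and 129.8 FPKM in the PDGFB tumors, again without overlap (-3.45 ± 0.51, adjusted p = 0.00121). Mmp15, a membrane-bound metalloproteinase, stood at 45.4, 55.9, 41.2 and 5.85 FPKM in the NRAS tumors and 307, 263, 363 and 284 FPKM in the PDGFB tumors, with NRAS tumor 4 below normal brain and the other NRAS tumors above it (-3.36 ± 0.54, adjusted p = 0.00182). Further genes of this group were the transporter Slc22a3 (-2.69 ± 0.26), the matrix gene Vit (-2.65 ± 0.37), the chloride channel relative Clic5 (-2.51 ± 0.33) and Moxd1 (-2.39 ± 0.57). Erythrocyte genes, a sign of blood in the tissue, had 1 lower of 5 (0 without NRAS tumor 1, 2 or 4 or PDGFB tumor 1 or 4).

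**Figure D2:**
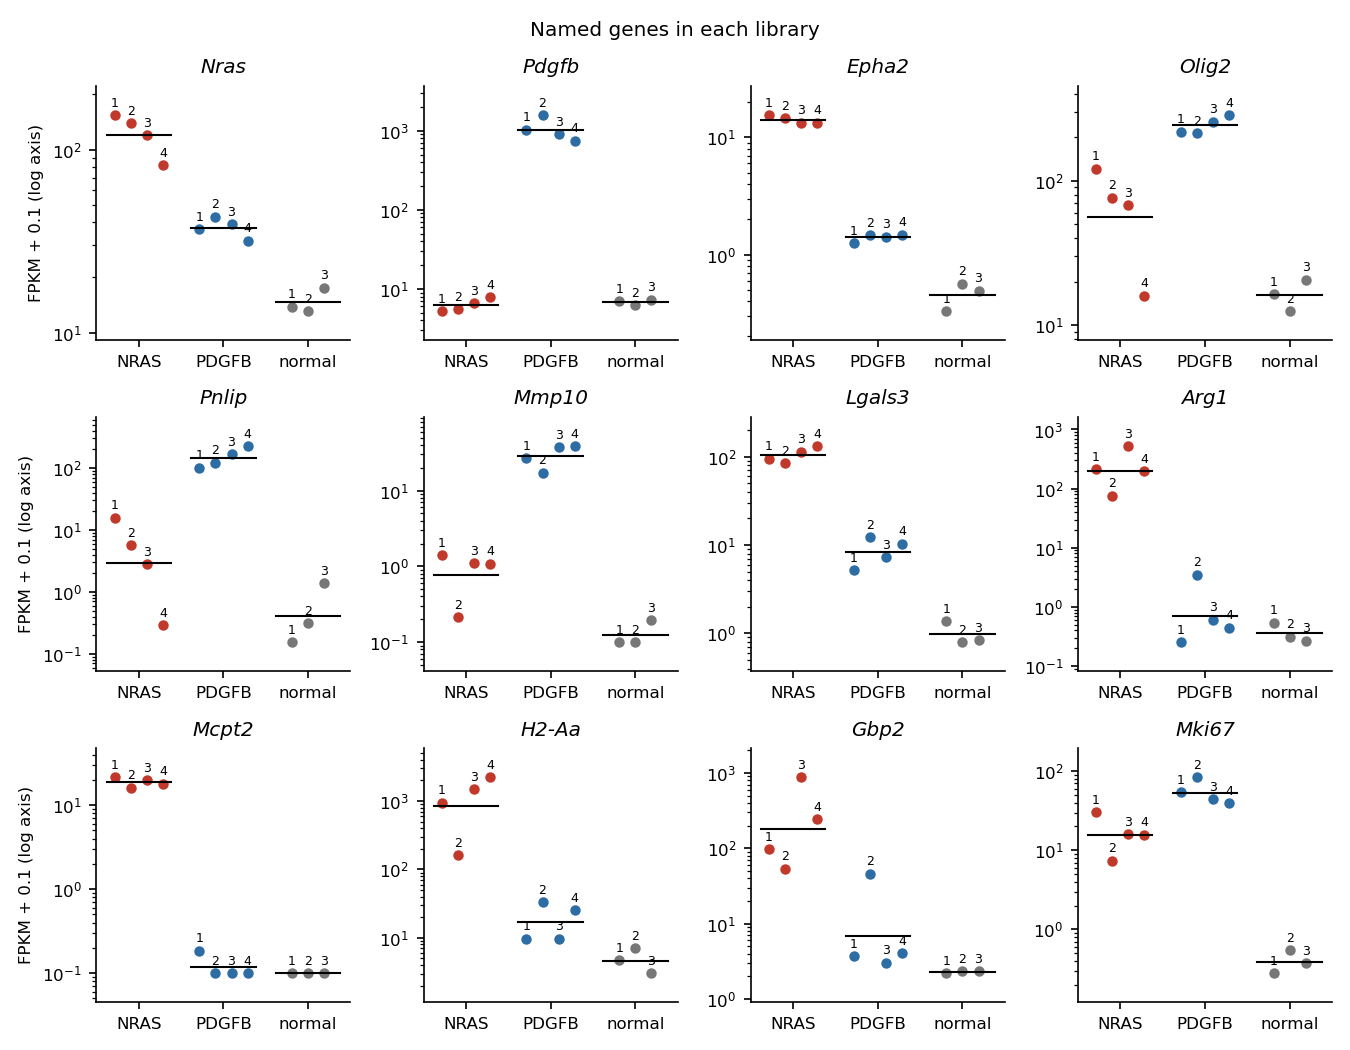
FPKM of 12 named genes (panels, logarithmic vertical axes of FPKM + 0.1) in each library of the NRAS, PDGFB and normal brain groups; points are libraries, numbered by replicate, and bars are means on the log scale. All panels show no overlap between NRAS and PDGFB tumors. Among the tumors, Pnlip and Olig2 are lowest in NRAS tumor 4, and Gbp2 of the PDGFB tumors is highest in tumor 2.

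Matrix genes were divided between the models by family member. MMP, ADAM and ADAMTS proteases had 12 lower and 8 higher of 43 tested: Mmp16 (-2.11 ± 0.32) and Mmp9 (-1.35 ± 0.28) were lower, and Mmp19 (2.09 ± 0.19) and Adam8 (2.05 ± 0.46) higher. Collagens had 8 lower and 7 higher of 34 (4 without PDGFB tumor 1, and 11 lower and 5 higher with quantile normalization). Col19a1, a minor collagen of basement membrane zones, stood at 2.23, 3.84, 1.44 and 1.52 FPKM in the NRAS tumors and 16.7, 26.4, 19.7 and 11.5 FPKM in the PDGFB tumors (-2.59 ± 0.28, adjusted p = 0.000322). On the other side, Col4a6, a basement membrane chain, was higher (7.67 ± 4.18 against 0.847 ± 0.262 FPKM, 2.12 ± 0.28). Of 10 laminin genes 5 were higher, such as Lamb1 (1.52 ± 0.34), and 1 lower (0 without NRAS tumor 1 or 3 or PDGFB tumor 1, 3 or 4 and 2 without NRAS tumor 4). Integrins had 12 higher and 3 lower of 23 (1 without NRAS tumor 4 or PDGFB tumor 3 and 6 without PDGFB tumor 4). The 4 largest increases, Itgb2 (2.996 ± 0.42), Itgal (2.82 ± 0.51), Itgb7 (2.44 ± 0.35) and Itgax (2.28 ± 0.33), are integrins of leukocytes, while Itga3 (1.94 ± 0.25) binds laminin. Among proteoglycans, Gpc4, a glypican that carries heparan sulfate, stood at 16.2, 31.4, 25.9 and 29.9 FPKM in the NRAS tumors and 2.09, 1.35, 1.999 and 2.29 FPKM in the PDGFB tumors. PDGFB tumors lay below and NRAS tumors above normal brain, 7.85, 9.800 and 5.19 FPKM (3.17 ± 0.23, adjusted p = 3.43e-05). The periostin gene Postn of fibroblast matrix was lower (-1.87 ± 0.38, adjusted p = 0.00531), and the thrombospondin gene Thbs2 higher (2.63 ± 0.47).

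Mesenchymal glioblastoma genes were higher in NRAS tumors. Of 35 tested, 26 passed in this direction and none in the other (median 1.74). NRAS tumors 3 and 4 alone gave 28 and NRAS tumors 1 and 2 alone 19. The median difference from normal brain was 3.16 for NRAS and 1.45 for PDGFB tumors, without a test. Lgals3 (galectin 3), a lectin of macrophages and mesenchymal tumor cells, stood at 94.96, 84.1, 114 and 131 FPKM in the NRAS tumors and 5.08, 12.3, 7.198 and 10.3 FPKM in the PDGFB tumors. All NRAS tumors lay above all PDGFB tumors, with a ratio of 6.86 between the nearest values (3.51 ± 0.24, adjusted p = 1.83e-05). Timp1, an inhibitor of metalloproteinases, stood at 245, 104, 271 and 158 FPKM in the NRAS tumors and 36.96, 24.4, 28.5 and 37.2 FPKM in the PDGFB tumors (2.501 ± 0.28, adjusted p = 0.00033), and Anxa2, a membrane-binding annexin, at 281, 252, 168 and 767 FPKM in the NRAS tumors and 42.8, 43.6, 52.6 and 64.7 FPKM in the PDGFB tumors (2.600 ± 0.37, adjusted p = 0.0011). NRAS tumor 4 had the highest Anxa2 value and no value overlapped. Tgfbi, a matrix protein induced by TGF-beta, stood at 49.8, 21.3, 118 and 141 FPKM in the NRAS tumors and 5.51, 5.78, 5.12 and 6.93 FPKM in the PDGFB tumors, with NRAS tumors 3 and 4 well above 1 and 2 (4.26 for the first pair and 2.31 for the second, both past the threshold). The hyaluronan receptor gene Cd44 (1.88 ± 0.17) and the receptor kinase gene Met (2.46 ± 0.29) were higher too. Within families, annexins had 6 higher of 9, S100 proteins 6 of 12 and galectins 6 of 7 (3 without NRAS tumor 4 or PDGFB tumor 1 and 2 without PDGFB tumor 3), with none lower. Their largest members besides those named were Anxa3 (2.37 ± 0.25), S100a10 (2.52 ± 0.27), S100a11 (2.31 ± 0.39) and Lgals1 (2.599 ± 0.35). Several of these genes are also expressed by macrophages, whose 22 list genes summed to 608 to 2727 FPKM in NRAS and 251 to 309 FPKM in PDGFB tumors. The part of such cells in the mesenchymal values was not tested.

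Several families of transcription factors linked to the mesenchymal state had more members higher than lower in NRAS tumors. Some members, among them Cebpd, Runx1 and Fosl1, are also in the mesenchymal list above, so these counts are not separate from it. RUNX, CEBP and NF-kappaB factors had 9 higher and none lower of 17. Cebpd stood at 24.6, 14.8, 34.8 and 26.4 FPKM in the NRAS tumors and 3.82, 6.34, 5.61 and 6.93 FPKM in the PDGFB tumors (1.93 ± 0.24, adjusted p = 0.000569), and Runx1, a factor of blood cells and mesenchyme, at 6.801, 2.48, 5.49 and 7.64 FPKM in the NRAS tumors and 1.09, 0.993, 1.102 and 0.946 FPKM in the PDGFB tumors (1.62 ± 0.24, adjusted p = 0.00133). AP-1 factors had 10 higher and 1 lower of 17. Fosl1, a FOS relative stabilised by ERK, stood at 5.88, 2.63, 4.02 and 6.27 FPKM in the NRAS tumors and 0.175, 0.473, 0.216 and 0.167 FPKM in the PDGFB tumors and was listed at 0 in all normal brains (2.13 ± 0.21, adjusted p = 0.000199). Fos itself was the member that was lower (-0.91 ± 0.22, adjusted p = 0.0122). The list of epithelial to mesenchymal transcription factors was mixed, with 2 higher, 1 lower and 6 that did not pass of 9. The lower one was Zeb1, at 48.4, 40.2, 31.3 and 19.4 FPKM in the NRAS tumors and 102, 129, 117 and 72.6 FPKM in the PDGFB tumors (-1.61 ± 0.26, adjusted p = 0.00173). With NRAS tumors 1 and 2 alone 5 RUNX, CEBP and NF-kappaB factors, 3 AP-1 factors and 3 Hippo pathway genes passed as higher. Of the Hippo pathway genes, 10 of 16 were higher and 2 lower. Yap1, the coactivator itself, stood at 18.4, 15.96, 17.3 and 38.4 FPKM in the NRAS tumors and 3.77, 5.899, 3.65 and 3.48 FPKM in the PDGFB tumors (2.11 ± 0.26, adjusted p = 0.000558), and its relative Wwtr1 at 51.7, 45.1, 69.2 and 38.1 FPKM in the NRAS tumors and 9.88, 18.5, 10.04 and 7.39 FPKM in the PDGFB tumors (2.102 ± 0.25, adjusted p = 0.000435). The lower members were Nt5e (-1.69 ± 0.24) and Ctgf (-0.82 ± 0.21), a classic target. In the TGF-beta and BMP pathway 14 were higher and 2 lower of 32 tested. The higher ones were led by Tgfbi, the activin antagonist Fst (3.103 ± 0.34) and Ltbp1 (2.87 ± 0.27).

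The promoters of some of these genes hold the letters that AP-1 binds. The motif TGANTCA was searched on both strands of RefSeq promoter windows of the GRCm38.p6 build, from 250 bases before to 50 after a gene's start. It was found in 9.35% of windows of genes higher in NRAS tumors and 11.4% where the difference was at least 2-fold. It was found in 4.66% of windows of lower genes, 5.30% of windows of all genes tested and 7.81% of all 32851 windows, and in 25.7% of the 35 windows of mesenchymal genes. A match is a description of the sequence, not a binding site or a cause. Windows with a match (in capitals) are shown for 2 mesenchymal genes higher in NRAS tumors, and, as a contrast, for Mmp10 and Pnlip, among the genes with the largest differences in favour of PDGFB tumors. Anxa2 lies at chr9:69453433-69453732, plus strand, S100a11 at chr3:93520246-93520545, plus strand, Mmp10 at chr9:7502092-7502391, plus strand and Pnlip at chr19:58670115-58670414, plus strand. All 5 matches read TGAGTCA.
Anxa2: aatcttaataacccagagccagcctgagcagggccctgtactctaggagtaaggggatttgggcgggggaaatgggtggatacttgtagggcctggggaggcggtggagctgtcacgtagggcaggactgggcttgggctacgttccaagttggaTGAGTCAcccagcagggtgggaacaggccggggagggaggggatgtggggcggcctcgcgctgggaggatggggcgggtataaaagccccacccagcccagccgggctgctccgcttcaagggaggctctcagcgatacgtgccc
S100a11: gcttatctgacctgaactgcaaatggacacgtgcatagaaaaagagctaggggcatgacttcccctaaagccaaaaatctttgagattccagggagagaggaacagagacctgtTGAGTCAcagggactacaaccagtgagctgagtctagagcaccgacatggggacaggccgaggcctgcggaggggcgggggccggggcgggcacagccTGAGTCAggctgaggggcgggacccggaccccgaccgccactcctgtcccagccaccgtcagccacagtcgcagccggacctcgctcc
Mmp10: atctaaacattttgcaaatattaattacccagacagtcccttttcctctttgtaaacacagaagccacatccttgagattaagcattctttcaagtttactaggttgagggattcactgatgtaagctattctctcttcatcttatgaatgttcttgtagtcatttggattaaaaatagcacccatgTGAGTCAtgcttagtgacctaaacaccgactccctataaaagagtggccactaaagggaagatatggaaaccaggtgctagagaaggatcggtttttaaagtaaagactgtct
Pnlip: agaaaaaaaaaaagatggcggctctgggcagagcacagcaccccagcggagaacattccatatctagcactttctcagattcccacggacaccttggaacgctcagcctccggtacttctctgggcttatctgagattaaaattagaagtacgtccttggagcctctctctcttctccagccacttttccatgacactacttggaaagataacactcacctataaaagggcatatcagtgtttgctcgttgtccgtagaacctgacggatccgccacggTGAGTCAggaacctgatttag

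Myeloid genes were among the largest increases in NRAS tumors. Arg1 (arginase 1), an enzyme of tumor-associated macrophages, stood at 214, 75.7, 518 and 199 FPKM in the NRAS tumors and 0.154, 3.39, 0.508 and 0.344 FPKM in the PDGFB tumors. The nearest values differed 22.4-fold, and the difference was the largest increase among the genes named (6.83 ± 0.54, adjusted p = 5.07e-05). Clec7a (dectin-1), a lectin receptor of myeloid cells, stood at 51.5, 50.3, 254 and 52.2 FPKM in the NRAS tumors and 0.408, 2.84, 0.336 and 0.6498 FPKM in the PDGFB tumors, PDGFB tumor 2 being the highest of its model (5.39 ± 0.51, adjusted p = 0.000163). Chil3, a chitinase-like protein of monocytes and macrophages, stood at 196, 2.82, 127 and 13.99 FPKM in the NRAS tumors and 0.0491, 0.772, 0.0969 and 0.0938 FPKM in the PDGFB tumors. Here NRAS tumor 2 was 3.65-fold above PDGFB tumor 2, and no value overlapped (4.83 ± 1.001, adjusted p = 0.00583). Of 22 monocyte and macrophage genes 16 were higher and 1 lower, the scavenger receptor gene Cd163 (-0.69 ± 0.19, adjusted p = 0.0192), which did not pass with NRAS tumor 3 or 4 or PDGFB tumor 3 left out, adjusted p = 0.051, 0.0552 and 0.0614. With NRAS tumors 1 and 2 alone 12 passed. Genes of homeostatic microglia had 8 higher and 1 lower of 13, but with smaller differences (median 1.09), and 3 were higher with NRAS tumors 1 and 2 alone. Csf1r, the receptor for CSF1 and IL-34, stood at 60.9, 60.9, 127 and 117 FPKM in the NRAS tumors and 22.8, 8.89, 17.95 and 28.5 FPKM in the PDGFB tumors (2.197 ± 0.34, adjusted p = 0.0015), and its ligand gene Il34 was higher (2.18 ± 0.27). Fcrls, a receptor typical of microglia, went down: it stood at 0.565, 3.399, 0.199 and 0.3703 FPKM in the NRAS tumors and 8.003, 1.99, 8.45 and 11.1 FPKM in the PDGFB tumors. NRAS tumor 2 overlapped PDGFB tumor 2, the other NRAS tumors were below normal brain (3.004, 2.51 and 4.65 FPKM), and the difference passed (-2.02 ± 0.48, adjusted p = 0.0111). NRAS tumors 1 and 2 alone did not (adjusted p = 0.141). Complement genes had 18 higher and none lower of 20, led by C3 at 73.1, 11.7, 232 and 129.7 FPKM in the NRAS tumors and 0.904, 2.41, 0.573 and 10.4 FPKM in the PDGFB tumors (4.48 ± 0.83, adjusted p = 0.00344).

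Mast cell genes separated the models with little spread among the NRAS tumors. Of 10 tested genes (of 14), 7 were higher and none lower. Mcpt2, a mast cell protease, stood at 21.3, 16.02, 19.8 and 17.9 FPKM in the NRAS tumors and 0.0841, 0, 0 and 0 FPKM in the PDGFB tumors and was listed at 0 in all normal brains. The highest NRAS value was 1.33 times the lowest (4.27 ± 0.13, adjusted p = 1.34e-08), a ratio that was 6.85 for Arg1. Mcpt1 was alike, at 32.5, 11.5, 20.1 and 13.5 FPKM in the NRAS tumors and 0, 0.0771, 0 and 0 FPKM in the PDGFB tumors (4.22 ± 0.26, adjusted p = 7.46e-06), and Tpsab1, a tryptase gene that the annotation used here lists as a transcribed pseudogene, stood at 10.3, 9.46, 9.03 and 15.5 FPKM in the NRAS tumors and 0.0729, 0, 0 and 0.0697 FPKM in the PDGFB tumors (3.51 ± 0.17, adjusted p = 9.58e-07). These 3 genes passed with each pair of NRAS tumors. Kit, the receptor that mast cells also carry, did not pass (-0.28 ± 0.21, adjusted p = 0.367).

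T cell and cytotoxic cell genes were higher in NRAS tumors. Of 22 T cell genes 16 were tested and 13 were higher, and of 17 cytotoxic genes 8 were tested and 7 higher. None was lower. A gene near 0 in PDGFB tumors and normal brain was tested only where NRAS tumors reached 1 FPKM, so the share among tested members is in part set by the filter, in this and all immune lists. Where 1 FPKM was required in 4 of the 8 tumor libraries instead, 7 T cell and 3 cytotoxic genes were called. The 4 NRAS tumors alone can meet that filter too, so it does not remove this effect. Cd3g, a chain of the T cell receptor complex, stood at 8.53, 2.34, 12.2 and 50.3 FPKM in the NRAS tumors and 0.07897, 0.466, 0.156 and 0.377 FPKM in the PDGFB tumors. The lowest NRAS tumor, 2, was 5.02-fold above the highest PDGFB tumor, also number 2 (3.26 ± 0.62, adjusted p = 0.00373). Gzmb, the granzyme of killer cells, stood at 9.36, 2.63, 41.7 and 79.7 FPKM in the NRAS tumors and 0, 0.212, 0 and 0 FPKM in the PDGFB tumors (4.18 ± 0.75, adjusted p = 0.00297), and was listed at 0 in 3 PDGFB tumors. NRAS tumors 3 and 4 lay above 1 and 2 for both genes. Among checkpoint genes 13 were higher and 2 lower of 20. Cd274 (PD-L1), an inhibitory ligand of T cells, stood at 12.02, 5.45, 74.5 and 37.6 FPKM in the NRAS tumors and 0.986, 2.96, 0.993 and 0.905 FPKM in the PDGFB tumors (3.25 ± 0.62, adjusted p = 0.00403), and Ctla4, an inhibitory T cell receptor, at 4.05, 1.76, 13.5 and 14.9 FPKM in the NRAS tumors and 0, 0.1996, 0.0401 and 0.0364 FPKM in the PDGFB tumors (2.82 ± 0.47, adjusted p = 0.00205). Nt5e, which makes adenosine at the cell surface, was the exception with the larger decrease, at 23.7, 12.6, 12.98 and 8.58 FPKM in the NRAS tumors and 44.3, 54.4, 49.1 and 37.7 FPKM in the PDGFB tumors (-1.69 ± 0.24, adjusted p = 0.00112), and Cd276 the other (-0.80 ± 0.19). Of 14 neutrophil genes 6 were tested, and 2 were higher (4 without NRAS tumor 2) and 1 lower. Retnlg was higher (3.34 ± 0.60) and Mmp9 lower (-1.35 ± 0.28). The neutrophil gene Lcn2 ranged from 222, 11.3, 666 and 73.5 FPKM in NRAS to 2.57, 13.2, 9.56 and 70.5 FPKM in PDGFB tumors, overlapped and did not pass (2.95 ± 1.13, adjusted p = 0.0752).

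Antigen presentation was higher in NRAS tumors for class II and class I, but few class I genes passed with NRAS tumors 1 and 2. All 11 tested class II genes were higher (median 2.73). H2-Aa, a class II chain, stood at 942, 161, 1491 and 2212 FPKM in the NRAS tumors and 9.59, 33.4, 9.62 and 25.1 FPKM in the PDGFB tumors. NRAS tumor 2 was the lowest of its model and still 4.82-fold above the highest PDGFB tumor (5.56 ± 0.71, adjusted p = 0.000668). Cd74, the invariant chain, followed at 1225, 253, 2063 and 2684 FPKM in the NRAS tumors and 11.8, 34.8, 12.98 and 35.1 FPKM in the PDGFB tumors (5.71 ± 0.66, adjusted p = 0.000384). With NRAS tumors 1 and 2 alone 9 of the 11 passed. Class I and immunoproteasome genes had 19 higher and none lower of 22 (median 2.28). Psmb9, an immunoproteasome subunit, stood at 176, 25.2, 307 and 155 FPKM in the NRAS tumors and 4.46, 38.2, 5.45 and 8.01 FPKM in the PDGFB tumors. PDGFB tumor 2 exceeded NRAS tumor 2, so the models overlapped (3.53 ± 0.75, adjusted p = 0.00677). Of these genes 21 passed with NRAS tumors 3 and 4 alone (median 2.96) and 3 with NRAS tumors 1 and 2 (median 1.57). All 22 passed without NRAS tumor 2, and NRAS tumor 1 lay above NRAS tumor 4 for Psmb9.

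Interferon response genes had a like pattern. Of 42 genes 37 were higher and none lower, with a median of 2.29. With NRAS tumors 3 and 4 alone 38 passed (median 2.87), with NRAS tumors 1 and 2 alone 6 (median 1.59), and without NRAS tumor 2 39. Gbp2, a GTPase that defends against intracellular pathogens, stood at 97.6, 53.4, 873 and 245 FPKM in the NRAS tumors and 3.61, 45.8, 2.93 and 3.96 FPKM in the PDGFB tumors. NRAS tumor 3 was highest, and PDGFB tumor 2 lay 11.6-fold above the next PDGFB tumor and close to NRAS tumor 2 (4.52 ± 0.90, adjusted p = 0.00491). For Igtp, a GTPase of the IRG family, PDGFB tumor 2 exceeded NRAS tumor 2, at 119, 53.98, 742 and 212 FPKM in the NRAS tumors and 3.697, 67.04, 2.397 and 3.15 FPKM in the PDGFB tumors (4.46 ± 0.96, adjusted p = 0.00704). Irf1 (2.76 ± 0.64), a transcription factor of the interferon pathway, overlapped in the same way, and 11 of 14 IRF and STAT genes were higher. In the plot of list levels, the mean of this list was therefore highest in NRAS tumor 3 and, within the PDGFB model, in tumor 2.

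**Figure D3:**
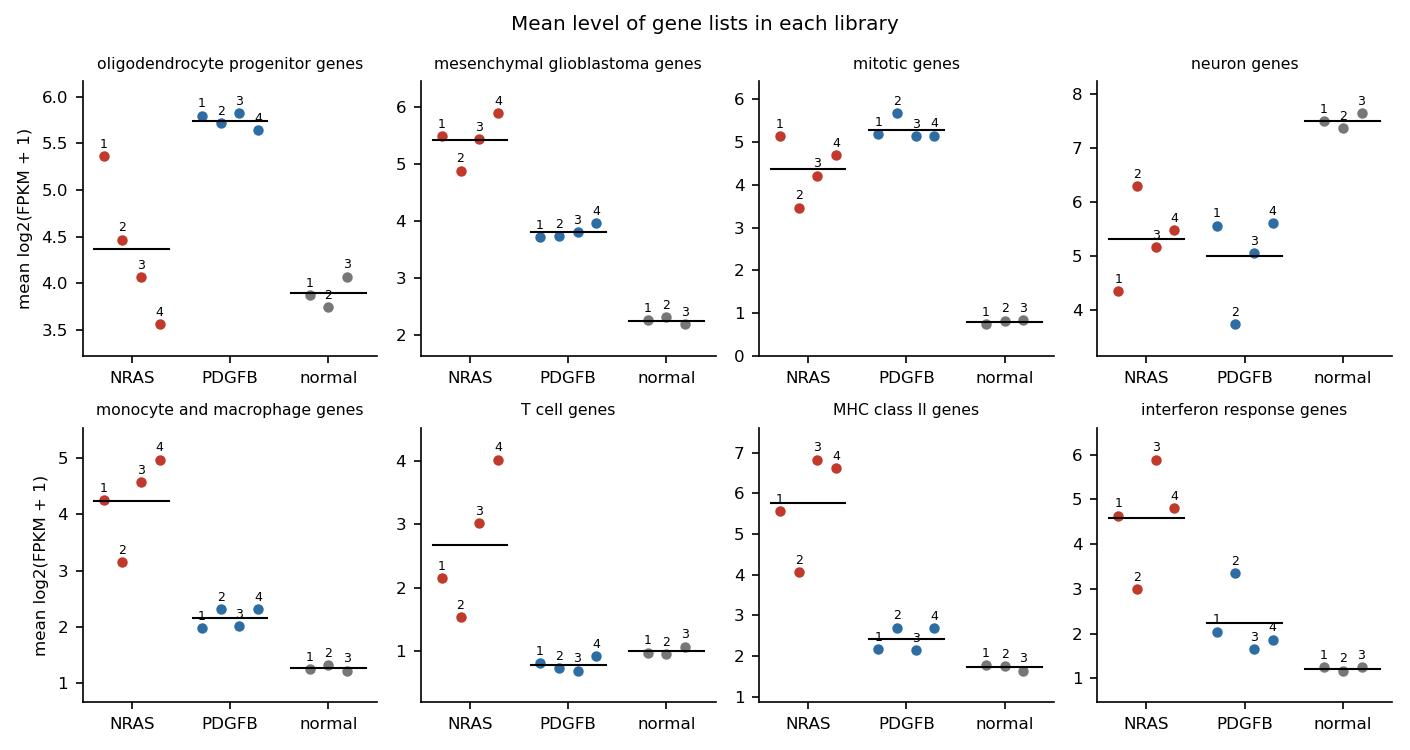
Mean log2(FPKM + 1) over the tested members of 8 gene lists (panels) in each library, numbered by replicate, for NRAS tumors, PDGFB tumors and normal brain; bars are group means. Immune lists are highest in NRAS tumors 3 and 4, interferon genes are raised in PDGFB tumor 2 within its model, and progenitor genes are highest in PDGFB tumors. Mitotic genes are highest in PDGFB tumor 2, with NRAS tumor 1 level with the other PDGFB tumors.

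A sequence bound by interferon-activated factors was found in the promoter windows of many interferon genes. The interferon-stimulated response element, searched as TTTC, any 2 bases and TTTC on both strands of the same windows, was found in 57.9% of the 38 windows of interferon response genes and 26.3% of 19 windows of class I genes. In comparison, it was found in 5.82% of windows of all genes higher in NRAS tumors, 2.75% of windows of lower genes, 3.09% of windows of all genes tested and 3.44% of all windows. Interferon genes were listed for their known induction through this element, so the share describes the list and is no finding. The windows of Gbp2 (chr3:142620413-142620712, plus strand), Cxcl10 (chr5:92348840-92349139, minus strand) and Igtp (chr11:58199306-58199605, plus strand), interferon response genes described here by their values, are shown with the match in capitals.
Gbp2: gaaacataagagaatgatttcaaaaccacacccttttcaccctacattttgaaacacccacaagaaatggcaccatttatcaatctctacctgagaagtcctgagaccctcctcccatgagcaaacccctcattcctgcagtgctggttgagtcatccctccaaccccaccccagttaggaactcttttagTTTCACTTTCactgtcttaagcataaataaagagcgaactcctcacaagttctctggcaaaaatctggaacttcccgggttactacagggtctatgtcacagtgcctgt
Cxcl10: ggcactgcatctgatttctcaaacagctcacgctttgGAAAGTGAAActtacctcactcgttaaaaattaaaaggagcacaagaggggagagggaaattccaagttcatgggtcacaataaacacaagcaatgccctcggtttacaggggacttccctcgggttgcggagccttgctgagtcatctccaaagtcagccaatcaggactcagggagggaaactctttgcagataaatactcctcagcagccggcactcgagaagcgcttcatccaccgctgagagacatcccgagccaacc
Igtp: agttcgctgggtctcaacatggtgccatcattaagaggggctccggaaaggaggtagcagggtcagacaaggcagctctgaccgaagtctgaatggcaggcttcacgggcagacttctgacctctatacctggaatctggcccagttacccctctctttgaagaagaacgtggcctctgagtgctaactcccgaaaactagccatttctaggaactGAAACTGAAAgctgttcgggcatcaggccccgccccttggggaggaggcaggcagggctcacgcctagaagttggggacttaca

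Chemokines and cytokines were higher as well. Of 38 chemokine genes 27 were tested, and 18 were higher and none lower. Cxcl10, which attracts T cells and is induced by interferon, stood at 96.3, 28.8, 1037 and 91.6 FPKM in the NRAS tumors and 3.98, 14.5, 1.86 and 2.42 FPKM in the PDGFB tumors. NRAS tumor 3 stood apart at 10.8 times the next NRAS tumor, and no value overlapped (4.62 ± 0.90, adjusted p = 0.00429). Ccl5, another T cell attractant, stood at 59.8, 13.1, 296 and 422 FPKM in the NRAS tumors and 3.01, 5.92, 2.23 and 3.06 FPKM in the PDGFB tumors, with NRAS tumors 3 and 4 highest (4.54 ± 0.86, adjusted p = 0.00376). Ccl24, an attractant of eosinophils, had a different order: 22.4, 20.9, 192 and 1.32 FPKM in NRAS tumors, with tumor 4 near the bottom, and 0, 0.118, 0 and 0.0574 FPKM in PDGFB tumors. It passed with all tumors (4.39 ± 0.97, adjusted p = 0.00796) but not with NRAS tumors 3 and 4 alone (adjusted p = 0.0761). Among interleukins and their receptors 28 were higher and 2 lower of 36 tested. The inflammatory cytokine gene Il1b stood at 7.81, 6.88, 10.1 and 20.5 FPKM in the NRAS tumors and 0.581, 0.343, 0.172 and 0.278 FPKM in the PDGFB tumors (3.09 ± 0.28, adjusted p = 0.000135), and the receptor accessory gene Il1rap was lower (-1.75 ± 0.22, adjusted p = 0.000668). TNF ligands and receptors had 18 higher of 29 and C-type lectins 9 of 16, with none lower in either list. Toll-like receptors had 9 higher and 1 lower of 11 (0 lower with either pair of NRAS tumors). Over all genes tested, 14.3% were higher and 12.2% lower.

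Clcf1, a cytokine of the IL-6 family that signals through the CNTF receptor, stood at 27.7, 55.8, 28.8 and 28.7 FPKM in the NRAS tumors and 0.826, 1.05, 0.317 and 0.531 FPKM in the PDGFB tumors, with NRAS tumor 2 far above the other NRAS tumors. The nearest values differed 26.3-fold (4.39 ± 0.23, adjusted p = 2.24e-06), and it passed with either pair (4.17 and 4.605). Crabp1, which binds retinoic acid in the cytosol, stood at 211, 37.8, 10.7 and 265 FPKM in the NRAS tumors and 1.28, 0.2099, 0.129 and 0.612 FPKM in the PDGFB tumors. It varied 24.8-fold among NRAS tumors and remained above all PDGFB tumors (5.57 ± 0.81, adjusted p = 0.00119). Its relative Crabp2 was higher too, at 5.97, 5.704, 28.1 and 9.95 FPKM in the NRAS tumors and 1.57, 0.908, 2.28 and 0.529 FPKM in the PDGFB tumors (2.31 ± 0.49, adjusted p = 0.00623). Guidance genes were divided: the neuropilin gene Nrp2 was higher (2.201 ± 0.27) and Sema3d lower (-1.75 ± 0.30). In the WNT pathway 9 of 27 tested genes were higher, such as the receptor gene Fzd7 (2.13 ± 0.20), and 2 were lower.

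Mitotic genes were higher in PDGFB tumors, although both models lay far above normal brain. Of 37 genes 17 were lower in NRAS tumors and none was higher (median -0.87). That number was 32 without NRAS tumor 1 and 10 without NRAS tumor 3 or PDGFB tumor 2. The median difference from normal brain was 3.63 in NRAS and 4.58 in PDGFB tumors, without a test. Mki67, the proliferation marker, stood at 30.4, 7.27, 15.99 and 15.6 FPKM in the NRAS tumors and 53.8, 83.3, 44.3 and 39.1 FPKM in the PDGFB tumors. NRAS tumor 2 was lowest, and NRAS tumor 1 came closest to the PDGFB tumors (-1.71 ± 0.35, adjusted p = 0.00567). Kif11, a spindle motor, stood at 24.4, 5.35, 10.9 and 11.5 FPKM in the NRAS tumors and 36.1, 55.7, 30.6 and 24.5 FPKM in the PDGFB tumors (-1.54 ± 0.36, adjusted p = 0.0109). NRAS tumors 3 and 4 alone gave 16 lower genes and NRAS tumors 1 and 2 alone 1, with a median of -0.98. DNA replication genes had 3 lower and none higher of 37 (median -0.53), and 20 without NRAS tumor 1 and 1 without NRAS tumor 2, 3 or 4 or PDGFB tumor 2. All 3 D-type cyclins, which open the G1 phase, were lower. Ccnd3 stood at 38.1, 29.5, 34.7 and 28.3 FPKM in the NRAS tumors and 63.4, 81.6, 89.9 and 97.8 FPKM in the PDGFB tumors (-1.32 ± 0.15, adjusted p = 0.000402), Ccnd2 was lower with overlapping values (-1.53 ± 0.52, adjusted p = 0.0489), and Ccnd1 without overlap (-0.92 ± 0.29, adjusted p = 0.0364). Neither held throughout: Ccnd2 did not pass with NRAS tumor 1, 3 or 4 or PDGFB tumor 1, 3 or 4 left out, adjusted p = 0.087, 0.0775, 0.117, 0.108, 0.131 and 0.0721. Ccnd1 did not with NRAS tumor 1 or PDGFB tumor 1, 3 or 4 left out, adjusted p = 0.0584, 0.0668, 0.102 and 0.0609. Among p53 targets 8 were higher (5 with NRAS tumors 1 and 2 alone) and 1 lower of 20. Perp, a membrane protein of p53-dependent cell death, stood at 5.22, 34.00, 35.9 and 23.1 FPKM in the NRAS tumors and 1.01, 0.191, 0.9198 and 1.78 FPKM in the PDGFB tumors (3.47 ± 0.50, adjusted p = 0.00114), and the p53 ligase gene Mdm2 was higher (1.15 ± 0.24), but the cell cycle inhibitor gene Cdkn1a did not pass (0.58 ± 0.36, adjusted p = 0.261). Many of the targets have other inducers, and Fas (2.51 ± 0.35), a death receptor, is in the TNF receptor list too.

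Metabolic genes differed by pathway. In the list of ATF4 and serine synthesis genes 11 were lower and 2 higher of 20 (median -0.64). The number lower was 6 without NRAS tumor 4 or PDGFB tumor 2. Slc7a5, the large neutral amino acid transporter, stood at 82.4, 60.3, 68.2 and 32.6 FPKM in the NRAS tumors and 142, 152, 141 and 127 FPKM in the PDGFB tumors (-1.27 ± 0.23, adjusted p = 0.00308). The asparagine synthetase gene Asns (-1.02 ± 0.26) and the serine synthesis gene Psat1 (-0.80 ± 0.20) were lower as well. Nupr1, a stress-induced nuclear protein, was the opposite, at 152, 395, 383 and 260.2 FPKM in the NRAS tumors and 32.1, 42.6, 25.1 and 18.9 FPKM in the PDGFB tumors (3.25 ± 0.31, adjusted p = 0.000167), and Atf4 itself did not pass (-0.11 ± 0.14, adjusted p = 0.6). With NRAS tumors 1 and 2 alone 2 genes of the list passed as lower. Lysosome genes had 23 higher and 1 lower (0 without NRAS tumor 1 or 4 or PDGFB tumor 1, 3 or 4) of 29, with 11 higher when NRAS tumors 1 and 2 were taken alone, and Ctss, a cathepsin of antigen-presenting cells, stood at 910.1, 436, 1415 and 1353 FPKM in the NRAS tumors and 106, 81.9, 89.3 and 159 FPKM in the PDGFB tumors (3.14 ± 0.34, adjusted p = 0.000298). The part of myeloid cells in these values was not tested. Hypoxia genes had 7 higher of 18 (3 without NRAS tumor 4 or PDGFB tumor 2), and none lower. Glycolysis genes had 5 higher of 25 (3 without NRAS tumor 4 and 9 without PDGFB tumor 4), and none lower. That is 20%, beside 14.3% higher and 26.6% called in either direction over all genes tested. The hexokinase gene Hk2 is in the hypoxia and glycolysis lists (1.49 ± 0.25). Nfe2l2, which encodes NRF2, stood at 68.7, 53.4, 85.3 and 91.4 FPKM in the NRAS tumors and 15.7, 20.5, 17.2 and 19.3 FPKM in the PDGFB tumors (1.96 ± 0.16, adjusted p = 7.58e-05), and the ferritin chain gene Fth1 was higher (1.65 ± 0.27).

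Large families of basic cell functions had few members past the threshold, beside 26.6% of all genes. Cytosolic ribosomal proteins had 1 higher and 1 lower of 78. The number higher was 0 without NRAS tumor 1 or PDGFB tumor 1, 2, 3 or 4, and the number lower 4 without NRAS tumor 1 and 0 without NRAS tumor 2 or 4 or PDGFB tumor 2, 3 or 4. Quantile normalization gave 0 higher and 11 lower. Mitochondrial ribosomal proteins had 1 higher and 4 lower of 77 (the number lower was 1 without NRAS tumor 3 or 4 or PDGFB tumor 4 and 2 without PDGFB tumor 2 or 3). Respiratory chain genes had 3 higher and 2 lower of 87, and chaperones and heat shock proteins 3 and 1 of 68. Respiratory genes gave 5 without PDGFB tumor 4 in the first direction and 0 without NRAS tumor 3 or 4 or PDGFB tumor 3 and 1 without PDGFB tumor 2 or 4 in the second, and chaperones 5 without NRAS tumor 2 in the first. Of 37 proteasome subunits 3 were higher (6 without NRAS tumor 2), and these are the immunoproteasome genes Psmb8 (2.91 ± 0.73), Psmb9 and Psmb10 (1.41 ± 0.40). Psmb10 did not pass with PDGFB tumor 1 or 3 left out, adjusted p = 0.0637 and 0.067. Zinc finger genes named Zfp were one-sided in number, with 67 lower and 6 higher of 306, but small in size (median -0.23). The number lower was 39 without NRAS tumor 3, 37 without NRAS tumor 4, 41 without PDGFB tumor 1, 35 without PDGFB tumor 2 and 33 without PDGFB tumor 3, 8 with NRAS tumors 1 and 2 alone and 112 with quantile normalization. Zfp488, an oligodendrocyte lineage factor, had the largest decrease (-1.78 ± 0.32, adjusted p = 0.00301). Polycomb and DNA methylation genes had 6 lower, such as Phf19 (-1.29 ± 0.25) and Bmi1 (-0.78 ± 0.14), and 1 higher of 22. Tubulins had 6 lower and none higher of 16 (3 without NRAS tumor 3 and 2 without NRAS tumor 4 or PDGFB tumor 3), led by Tubb2b, a tubulin of immature neural cells, at 95.4, 88.04, 104 and 32.8 FPKM in the NRAS tumors and 194, 209.8, 249.99 and 273 FPKM in the PDGFB tumors (-1.63 ± 0.31, adjusted p = 0.00398).

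**Figure D4:**
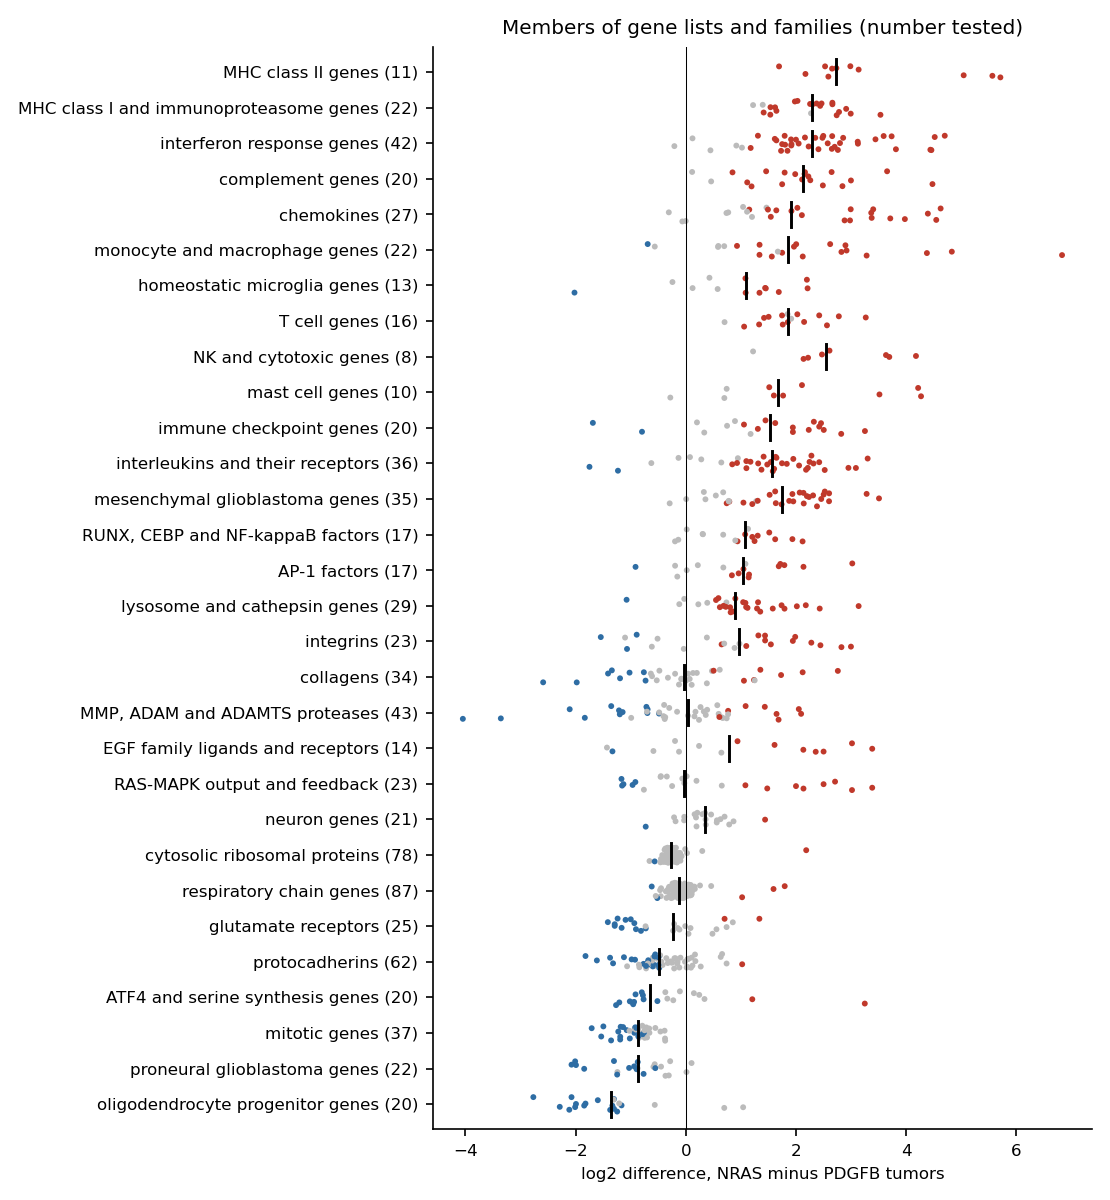
Log2 difference (NRAS minus PDGFB, horizontal axis) of every tested member of 30 gene lists and families (rows); coloured points passed the threshold, grey points did not, and black ticks are the medians. Immune, interferon and mesenchymal lists lie to the right, progenitor, mitotic and serine synthesis lists to the left, and ribosomal and respiratory genes close to 0.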

How the data were processed

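RNA sequencing libraries of 4 NRAS tumors, 4 PDGFB tumors and 3 normal brains were used, and each sample's group was read from its title. The values are FPKM in 1 table made and deposited by the authors. Per the submitters' processing notes, TopHat2 2.0.13, Cufflinks 2.2.1 and mm10 were used, while settings and annotation are not named there. Of 24347 rows, 27 were left out because their gene names had been turned into dates. Of the remaining 24320 names, 24206 matched a current or older symbol of the GRCm38.p6 annotation. Small RNA rows accounted for 10.5% to 42.8% of summed FPKM by library, and FPKM are relative to the library total.

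Genes with 1 FPKM in at least 3 of the 11 libraries (14491) were analysed as log2(FPKM + 1), which understates differences of low genes. One linear model over the 3 groups was fitted with limma 3.58.1 in R 4.3.3 (moderated variances with a trend, Benjamini-Hochberg adjustment over all genes tested, threshold 0.05). Adjusted p-values given for NRAS against PDGFB tumors come from this model, except for pairs of NRAS tumors. NRAS tumors 3 and 4 were fitted with the 4 PDGFB tumors alone, and NRAS tumors 1 and 2 with the PDGFB tumors and normal brain. The procedure was tested on simulated data. Low values come from few reads, and a gene listed at 0 may be below detection. Of the genes tested, 11442 matched a RefSeq promoter window.

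The gene lists and the genes named were chosen with earlier results of these data known. Named genes were the plasmid genes, the 15 highest and 15 lowest differences among called genes without overlap and with a mean of at least 5 FPKM in the higher model (leaving out predicted genes, RIKEN and other clones, small RNA and erythrocyte genes), and up to 3 called genes per list and direction. In lists without a called gene, up to 2 were named. Atf4, Ccnd1, Cd44, Cdkn1a, Dusp4, Dusp5, Dusp6, Egfr, Gfap, Il34, Itga3, Kit, Lcn2, Mdm2, Met, Psat1 and Spry1 fall outside that rule and were chosen after their values were seen. Lists were described by counts and medians, without a test of the list. Alternatives changed the scale, filter, normalization, covariates, variance model and libraries. Title replicate numbers were also fitted as a block.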

Additional observations from a re-analysis of the deposited data

Results flagged for a closer look

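Of 298 groups of 4 tumors, 1 per model and gene named above, 39 held a tumor whose gap to the nearest of the other 3 took up more of the group's whole range than Dixon's 95% critical value allows. That value marks about 1 in 20 groups of independent, normally distributed values. The ratio was taken on FPKM of genes chosen for their differences, some at 0 in several tumors. The count of 39 therefore cannot be read as an excess over that rate. PDGFB tumor 2 accounted for 15 of the 39, the most of any library, and no cause was tested. Far above and far below are used here for the gap relative to the range, and the difference itself can be small. PDGFB tumor 2 was far above the other PDGFB tumors in Arg1 (3.39 FPKM), Cd274 (2.96 FPKM), Chil3 (0.772 FPKM), Clec7a (2.84 FPKM), Cxcl10 (14.5 FPKM), Fosl1 (0.473 FPKM), Fzd7 (2.44 FPKM), Gbp2 (45.8 FPKM), Gzmb (0.212 FPKM), Igtp (67.04 FPKM), Irf1 (42.98 FPKM), Mcpt1 (0.0771 FPKM), Psmb8 (85.1 FPKM), Psmb9 (38.2 FPKM) and Yap1 (5.899 FPKM).

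PDGFB tumor 1 was far above the other PDGFB tumors in Mcpt2 (0.0841 FPKM), and far below them in Sox10 (141 FPKM) and Vit (10.6 FPKM). PDGFB tumor 4 was far above the other PDGFB tumors in Fas (3.03 FPKM) and Lcn2 (70.5 FPKM), and far below them in Egfr (1.49 FPKM) and Il1rap (125 FPKM). NRAS tumor 1 was far above the other NRAS tumors in Dusp6 (151 FPKM) and Pdgfra (144 FPKM), and far below them in Kcnn4 (10.4 FPKM). NRAS tumor 2 was far above the other NRAS tumors in Clcf1 (55.8 FPKM), Fcrls (3.399 FPKM), Hhipl2 (5.88 FPKM), Kcnd2 (19.01 FPKM) and Slc22a3 (1.12 FPKM). NRAS tumor 3 was far above the other NRAS tumors in Ccl24 (192 FPKM), Cd44 (97.4 FPKM), Clec7a (254 FPKM) and Cxcl10 (1037 FPKM). NRAS tumor 4 was far above the other NRAS tumors in Gja1 (120.3 FPKM), S100a11 (944 FPKM), Sox13 (11.6 FPKM), Thbs2 (80.2 FPKM) and Yap1 (38.4 FPKM).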

How the results depend on the processing

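Of 143 named genes past the threshold, 113 passed in all 21 alternatives and 137 without each library in turn. With any 1 tumor library left out, 2578 to 4215 genes were called, 1545 to 2266 higher and 1033 to 1980 lower in NRAS tumors, and differences of at least 2-fold numbered 1132 to 1480 higher and 323 to 583 lower. The 8 tumor libraries alone, without normal brain, gave 1126 lower genes. NRAS tumors 1 and 2 alone (1835 and 1838), chosen after seeing the data, gave 1570 genes, 1103 higher (793 at least 2-fold) and 467 lower (196 at least 2-fold). Dusp6, which did not pass in any of these settings, had differences of -0.1416 (without PDGFB tumor 1) to 0.1718 (without PDGFB tumor 2) with 1 library left out, among them 0.0042 without NRAS tumor 3 and 0.0104 without NRAS tumor 4, and 0.0785 with NRAS tumors 1 and 2 alone. The cause of these shifts was not tested. List counts of 0 or 1 member, given for EGF family genes lower, cadherins higher, synaptotagmins, myelin genes, astrocyte genes lower, macrophage genes lower, p53 targets lower, chaperones lower, mitochondrial ribosomal genes higher and Polycomb genes higher, moved by 1 with single libraries left out.

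With the title replicate number as a block, 1416 genes were called, 1003 higher (893 at least 2-fold) and 413 lower (292 at least 2-fold). Deviations of same-numbered tumors from their model's mean correlated at -0.30, -0.50, -0.09 and 0.12. So few values show no likeness of same-numbered tumors but cannot exclude that the tumors were paired. The labels state no pairing of tumors, and the block was used in no result.

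The depth of these libraries is unknown, so no counting interval can be given, and genes under 1 FPKM are the least precise. With 4 tumors in each model, of which the NRAS tumors fall in 2 series of title numbers, a difference between models and a difference between these series cannot be fully told apart for NRAS tumors 1 and 2.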

Other observations

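The ribosomal protein gene called higher in NRAS tumors was Rps27, a subunit of the small ribosome. It stood at 67.3, 68.9, 5.66 and 6.85 FPKM in the NRAS tumors and 3.04, 4.88, 4.67 and 3.35 FPKM in the PDGFB tumors and 4.57, 6.69 and 4.37 FPKM in normal brain. NRAS tumors 1 and 2 stood apart from the 9 other libraries, and NRAS tumors 3 and 4 alone did not pass (adjusted p = 0.134). The difference over all tumors was 2.18 ± 0.71, adjusted p = 0.0429, and did not pass with NRAS tumor 1 or 2 or PDGFB tumor 1, 2, 3 or 4 left out, adjusted p = 0.0928, 0.0895, 0.0918, 0.07, 0.0796 and 0.0801.

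Called genes were spread over the chromosomes unevenly in direction, with no test made. On chromosome 18, 8.19% of tested genes were higher and 15.9% lower in NRAS tumors. The protocadherin gene Pcdhb10 lies on that chromosome, and the part of its family in this share was not examined. Chromosome X had 12.5% higher and 16.9% lower, and chromosome 14 had 15.4% higher and 16.8% lower. Chromosome 19 had 18.6% higher and 9.22% lower, beside 14.3% and 12.2% over all genes tested.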
